A study of Homo sapiens with 6 samples.

Results

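The miR-106b-25 cluster (miR-106b, miR-93 and miR-25) and the miR-106a-363 cluster (miR-106a, miR-18b, miR-20b, miR-363 and further hairpins) are paralogues of the cluster hosted by MIR17HG on chromosome 13 (miR-17, miR-18a, miR-19a, miR-20a, miR-19b and miR-92a). They were followed here through 8 array probes, chosen by name as the listed mature arms of both clusters, 4 from each, out of 2019 human miRNA probes on the array. The selection rule is by name and contains no measured value. The cells were HuH7, a long-established line from a human liver carcinoma, and miRNA levels were read after 24 h without drug (control, n = 3 arrays) or with 1 µg/ml cisplatin (n = 3 arrays), a platinum drug that crosslinks DNA. The labels do not state whether numbered samples came from separate cultures; the p-values therefore reflect array-to-array spread that may be technical in origin, and the number of arrays limits the precision.

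A miRNA recognises its targets mainly through its seed, the bases 2 to 8 from the 5′ end, so miRNAs with the same seed share much of their target set. The miR-106b-25 hairpins lie within MCM7, the gene of a subunit of the replicative DNA helicase, and are processed from its introns. The family is known for dampening the cell cycle inhibitor p21 and the pro-apoptotic protein BIM and for being driven by E2F and MYC factors, and miR-106b-25 is often raised in liver cancer. The miR-106a-363 cluster lies on the X chromosome. Its members are near copies of MIR17HG members, and miR-19b and miR-92a are made from both loci as identical mature sequences.

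The mature sequences show how the members group, and which of them a hybridisation probe could hardly tell apart. All 8 matched an entry of RefSeq (GRCh38.p14), and the MIR17HG counterparts are added for comparison. The seed is in capitals.
hsa-miR-106b-5p: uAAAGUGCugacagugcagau
hsa-miR-93-5p: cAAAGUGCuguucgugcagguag
hsa-miR-106a-5p: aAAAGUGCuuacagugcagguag
hsa-miR-20b-5p: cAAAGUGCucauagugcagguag
hsa-miR-17-5p: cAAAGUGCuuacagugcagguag
hsa-miR-20a-5p: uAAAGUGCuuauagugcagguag
hsa-miR-18b-5p: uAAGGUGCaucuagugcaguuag
hsa-miR-18a-5p: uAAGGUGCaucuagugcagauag
hsa-miR-25-3p: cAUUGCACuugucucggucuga
hsa-miR-363-3p: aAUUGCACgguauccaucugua
hsa-miR-92a-3p: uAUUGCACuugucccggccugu
hsa-miR-106b-3p: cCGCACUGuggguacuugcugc
Of the members, 4 carry AAAGUGC, 1 carries AAGGUGC, 2 carry AUUGCAC and miR-106b-3p, the opposite arm of the miR-106b hairpin, carries a seed of its own. Among 2370 mature sequence names in the table, 8 hold the first seed, 3 the second and 6 the third. Counting positions from 1 at the 5′ end of the counterpart, miR-106a-5p differs from miR-17-5p by C1A alone, miR-18b-5p from miR-18a-5p by A20U alone, and miR-20b-5p from miR-20a-5p by U1C and U10C. miR-106b-5p differs from miR-17-5p at 3 of the 21 positions they share, and miR-93-5p from miR-20a-5p and miR-25-3p from miR-92a-3p at 4 each. Only miR-363-3p is far from its counterpart, with 12 differences from miR-92a-3p, and no difference falls in a seed. Probe sequences were not used here, so how much of the signal of miR-106a-5p, miR-18b-5p and miR-20b-5p comes from their MIR17HG near copies was not tested.

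The miR-106b hairpin shows both of its measured arms (capitals), the 5p arm first.
MIR106B: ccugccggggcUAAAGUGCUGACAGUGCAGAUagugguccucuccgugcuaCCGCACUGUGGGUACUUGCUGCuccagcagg
In GRCh38.p14 this hairpin occupies chr7:100093993-100094074 on the minus strand, with MIR93 (chr7:100093768-100093847) and MIR25 (chr7:100093560-100093643) behind it in transcript direction. All 3 lie inside the bounds of MCM7 (chr7:100092728-100101397) and span 515 bases. The other cluster spans 901 bases from MIR106A (chrX:134170198-134170278) over MIR18B, MIR20B, MIR19B2 and MIR92A2 to MIR363 (chrX:134169378-134169452), also on the minus strand. The mature arms lie at chr7:100094043-100094063 (miR-106b-5p), chr7:100094002-100094023 (miR-106b-3p), chr7:100093815-100093837 (miR-93-5p) and chr7:100093571-100093592 (miR-25-3p). Those of the other cluster lie at chrX:134170244-134170266 (miR-106a-5p), chrX:134170084-134170106 (miR-18b-5p), chrX:134169850-134169872 (miR-20b-5p) and chrX:134169382-134169403 (miR-363-3p).

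**Figure D1:**
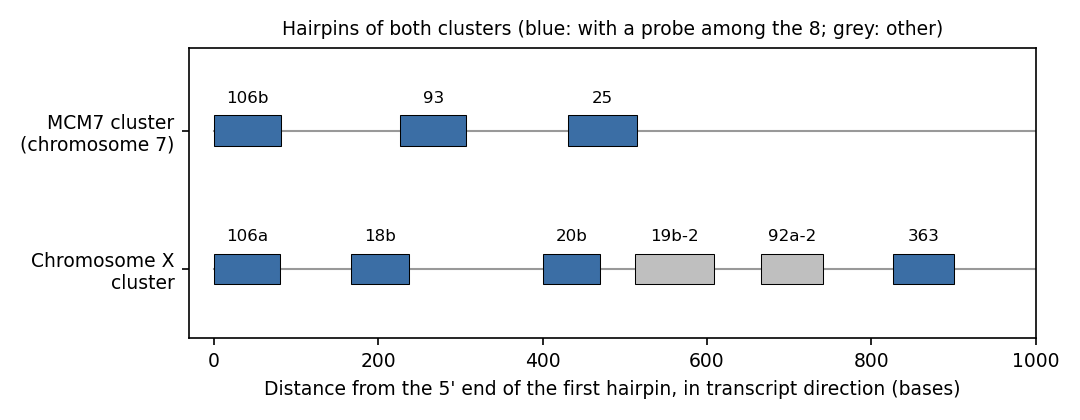
Hairpins of the MCM7 cluster and of the chromosome X cluster, drawn to scale by distance in bases from the 5′ end of the first hairpin in transcript direction. The 3 hairpins on chromosome 7 span 515 bases and the 6 on chromosome X span 901 bases; blue hairpins have a probe among the 8, and the grey miR-19b-2 and miR-92a-2 share their mature sequence with MIR17HG hairpins.

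The values are raw spot intensities, and a probe was called above background where its foreground exceeded a limit set by the 925 blanks on the same array (their mean plus 2 SD), between 208.6 and 246.5 over the arrays. Arrays had 329 to 738 human probes above it, the fewest on cisplatin replicate 2. All 6 hepatocyte marker probes, miR-122 among them, were above the limit on all 6 arrays, with summed raw signals of 8383 to 9878 in control and 8421 to 10598 in cisplatin arrays. Of 7 blood cell markers 0 were above it on all arrays of a group, and of 7 endothelial and stromal markers 3 were above it on all 6 arrays. Replicate 2 of both groups lay at the first pair of places on the slide (1 and 2 by the file headers) and the other arrays at places 3 and 4, and no place held both groups, so place and group cannot be told apart. The test used the 324 probes above the limit on every array of at least 1 group. Among them were 7 of the 8 members; miR-363-3p was left out.

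In the MCM7 cluster 3 of the 4 arms were far above the blank limit on all arrays, and the other, miR-106b-3p, lay close to it. miR-106b-5p, which carries the AAAGUGC seed, had raw foregrounds of 1750, 2119 and 2270 on control arrays 1 to 3 and of 1937, 2583 and 2635 on cisplatin arrays 1 to 3. The groups overlapped, and within each of the 3 same-numbered pairs the cisplatin array was the brighter, by 1.11, 1.22 and 1.16 times. miR-93-5p, with the same seed, read 1460, 1697 and 1799 in control and 1567, 2071 and 2096 in cisplatin arrays. It was again higher in 3 of 3 pairs, by 1.07, 1.22 and 1.17 times, with overlapping groups. miR-25-3p, of the miR-92a seed family, read 1180, 1449 and 1373 in control and 1337, 1589 and 1615 in cisplatin arrays, or 1.13, 1.10 and 1.18 times higher within pairs.

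Those raw ratios moved with the array as a whole for some reference spots and against it for others. The spots named Spike Control were also brighter on the cisplatin array of every pair, by 1.14, 1.06 and 1.204 times, while the median human probe was dimmer on it, at 0.944, 0.996 and 0.982 times, and the part of either in the members' values was not tested. After quantile normalization, which gives a probe the average value of its rank, the same 3 arms lay slightly lower after cisplatin. miR-106b-5p ranked 17 to 19 from the top on all 6 arrays, and its log2 difference, cisplatin minus control, was -0.057 (SE 0.046, limma adjusted p = 0.667). For miR-93-5p, ranked 23 to 25 on control and 27 to 28 on cisplatin arrays, the normalized log2 values were 10.84, 10.74 and 10.74 in control and 10.64, 10.61 and 10.64 in cisplatin arrays. These did not overlap, and the difference was -0.14 (SE 0.049, limma adjusted p = 0.259). miR-25-3p, ranked 30 to 33, differed by -0.058 (SE 0.084, limma adjusted p = 0.821). It held rank 32 on all cisplatin arrays and so has identical normalized values there.

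miR-106b-3p, the opposite arm of the miR-106b hairpin, read 250, 276 and 260 in control and 226, 239 and 233 in cisplatin arrays. Its signal exceeded that limit on 3 of 3 control and 2 of 3 cisplatin arrays, cisplatin replicate 2 being below it. The raw groups did not overlap, as was so for 13% of tested probes in either direction and for 3.4% in the lower direction. Mean blank signal was also lower on the cisplatin array of each pair, at 0.939, 0.988 and 0.991 times, and its part in a probe this dim was not tested. After normalization the values were 6.96, 6.97 and 6.91 in control and 6.91, 6.64 and 6.71 in cisplatin arrays, a log2 difference of -0.20 (SE 0.081, limma adjusted p = 0.325). The 2 arms of the hairpin thus had raw signals that moved in opposite directions in all 3 pairs, with the 3p arm close to background. Within arrays the 3p arm minus the 5p arm changed by -0.14 on the log2 scale after normalization (exact two-sided permutation p = 0.3) and by -0.44 without normalization (exact p = 0.2). This comparison was added after the values had been seen, so its p-values are a description only.

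**Figure D2:**
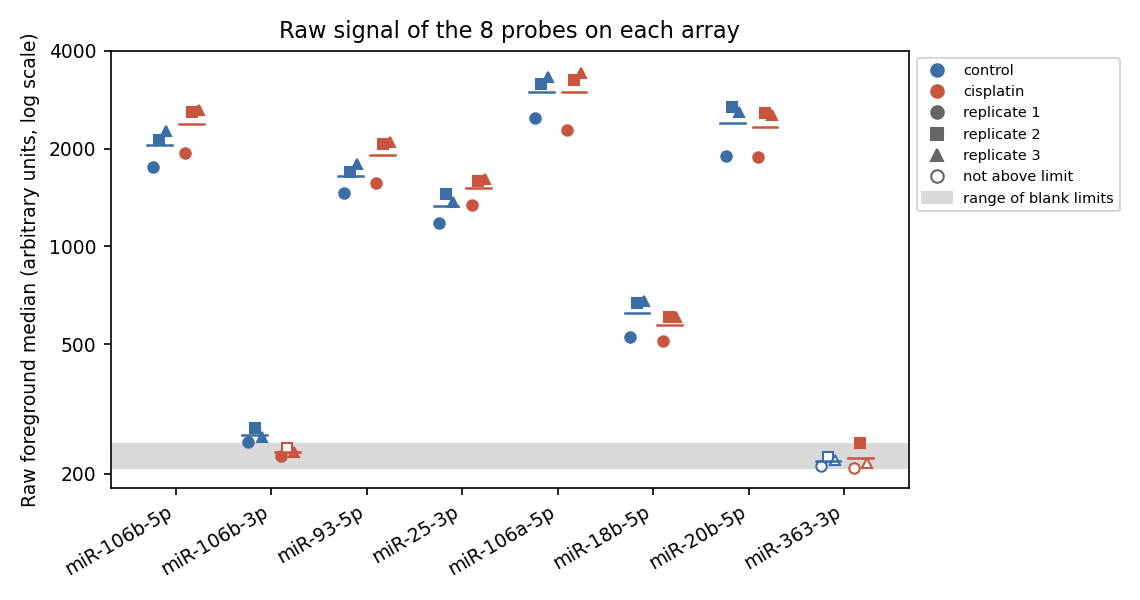
Raw foreground median of the 8 probes on each array, in arbitrary units on a log axis, with control in blue, cisplatin in red, marker shape for the replicate number, a bar for each group mean, and open markers where a probe was not above the blank limit. miR-106b-5p, miR-93-5p and miR-25-3p are higher in the cisplatin array of every same-numbered pair, while miR-106b-3p lies between 226 and 276 and miR-363-3p between 208 and 248, in or near the grey range of blank limits.

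In the chromosome X cluster 3 of the 4 members were well above background. They differ from MIR17HG arms by 1 or 2 bases, and how much of their signal comes from those near copies was not tested. None of these 3 members was brighter on the cisplatin array of every pair, as miR-106b-5p, miR-93-5p and miR-25-3p were. The MCM7 arm miR-106b-3p was dimmer on it in every pair, so the raw directions did not split by cluster. miR-106a-5p, the near copy of miR-17-5p, read 2489, 3171 and 3317 in control and 2283, 3255 and 3414 in cisplatin arrays. It was lower in the cisplatin array of pair 1 and slightly higher in pairs 2 and 3, at 0.917, 1.03 and 1.03 times. Its normalized log2 difference was -0.10 (SE 0.096, limma adjusted p = 0.743), with overlapping groups.

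miR-20b-5p, another AAAGUGC miRNA, read 1900, 2682 and 2601 in control and 1889, 2568 and 2534 in cisplatin arrays, lower in every pair at 0.994, 0.957 and 0.974 times. It ranked 16 on all 3 control arrays and 20, 21 and 21 on the cisplatin arrays. Its normalized log2 values were therefore 11.22 on every control array and 10.96, 10.94 and 10.94 on cisplatin arrays, a difference of -0.27 (SE 0.041, limma adjusted p = 0.0909). A shared rank gives the control group no spread, so this SE is too small. miR-18b-5p, which differs from the other members in its AAGGUGC seed, read 528, 669 and 678 in control and 510, 608 and 606 in cisplatin arrays, lower in every pair at 0.966, 0.909 and 0.894 times. Its raw groups overlapped. Its normalized values of 8.97, 9.08 and 9.20 in control and 8.75, 8.71 and 8.83 in cisplatin arrays did not, and the difference of -0.32 (SE 0.075, limma adjusted p = 0.129) was the largest among the members. miR-363-3p, at the far end of the cluster, was above the limit on 0 of 3 control arrays and on 1 of 3 cisplatin arrays, replicate 2, where it read 248 against a limit of 246.5. On the other arrays it read 208 to 225, and no fold is given. The authors' values list it on cisplatin arrays 1 and 2 only.

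Over both clusters, 0 of 7 tested members passed at an adjusted p under 0.05, where 0.309% of all 324 tested probes did, and 3 of 7 (miR-93-5p, miR-18b-5p and miR-20b-5p) had an unadjusted limma p under 0.05, where 15.7% of all tested probes did (7.72% in the lower direction, which all 3 members had). Without background correction miR-20b-5p passed (limma adjusted p = 0.0223), where 3 of all 324 tested probes did. In the main fit the shared rank of this probe made its SE too small. With slide place as a random block, at an estimated correlation of -0.62, miR-93-5p (limma adjusted p = 0.0352), miR-18b-5p (0.0198) and miR-20b-5p (0.00778) passed, where 47 of all 324 tested probes did. The negative correlation shrinks the standard errors and no place held both groups, so these calls are not relied on. All 7 log2 differences were negative, against 53.7% of tested probes, with a median of -0.14 against -0.012 over all tested probes. Of the 7, miR-106b-3p was tested only through the control arrays, a rule that favours a lower cisplatin value. Among probes above the limit on all 6 arrays, 6 of 6 members were negative, against 50.6% of all such probes. The normalized groups did not overlap for 4 members, all lower after cisplatin (miR-106b-3p, miR-93-5p, miR-18b-5p and miR-20b-5p), as for 10.2% of tested probes in that direction and 18.8% in either. The 7 differences had the same sign in both parts of the slide, each of which still sets 1 place against another. Both parts come from the same 6 arrays, so this is no separate support, and the share over all tested probes is not given. Between the 2 arrays at places 1 and 2 the differences ran from -0.37 for miR-18b-5p to -0.043 for miR-106b-5p. With only places 3 and 4 fitted they ran from -0.30 for miR-18b-5p to -0.027 for miR-106b-5p.

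The shared negative sign held under quantile normalization but not under simpler scaling. With arrays scaled to the median human probe, miR-106b-5p stood at 0.25 (SE 0.15), miR-93-5p at 0.24 and miR-25-3p at 0.23, while miR-106a-5p stood at 0.0042, miR-20b-5p at -0.017, miR-18b-5p at -0.12 and miR-106b-3p at -0.19. All tested probes shifted by 0.088 under that scaling. Less this shift the 3 MCM7 arms lay at 0.16, 0.15 and 0.14 and the 3 X-linked arms miR-106a-5p, miR-20b-5p and miR-18b-5p at -0.084, -0.11 and -0.21. With arrays scaled to the Spike Control spots, the MCM7 arms lay at 0.050, 0.037 and 0.029. With the authors' values they lay at 0.21, 0.20 and 0.19. None of these members passed in those fits (limma adjusted p from 0.393 to 0.999).

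**Figure D3:**
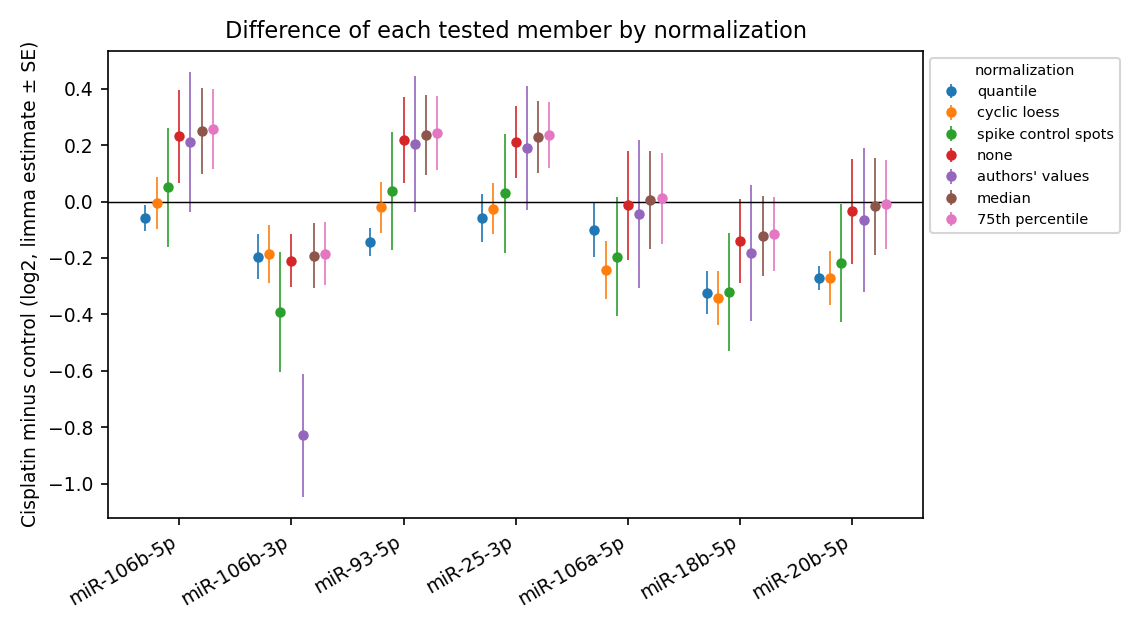
Cisplatin minus control difference (log2, limma estimate ± SE, 3 arrays per group) of each tested member under 7 normalizations of the same arrays. The MCM7 arms miR-106b-5p, miR-93-5p and miR-25-3p run from negative (-0.057, -0.14 and -0.058 with quantile normalization) to positive (0.26, 0.24 and 0.24 with the 75th percentile), while miR-18b-5p, miR-20b-5p and miR-106b-3p are negative under all 7.

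In each of these fits the change of the 3 brighter MCM7 arms was, on average, above that of the 3 X-linked arms. This was examined within arrays, where a single scaling factor cancels, as the mean log2 of miR-106b-5p, miR-93-5p and miR-25-3p minus that of miR-106a-5p, miR-18b-5p and miR-20b-5p. Only the change of this quantity can be read, since levels of different probes are not comparable. How much of the signal of the 3 X-linked probes comes from MIR17HG near copies was not tested, so the contrast compares probes and not loci. The dim MCM7 arm miR-106b-3p, also among the tested probes, is not part of the contrast and went the other way. Its own difference was -0.20 after quantile normalization and -0.83 with the authors' values, so the contrast does not describe the whole cluster. After quantile normalization the contrast was 0.14, 0.12 and 0.088 on control and 0.31, 0.28 and 0.19 on cisplatin arrays. Control arrays averaged 0.11 ± 0.025 and cisplatin arrays 0.26 ± 0.064 (SD, n = 3 each), a change of 0.15. Without normalization it was 0.13, -0.023 and 0.0030 on control and 0.35, 0.30 and 0.32 on cisplatin arrays, a change of 0.28. All cisplatin arrays lay above all control arrays in both, and the change was positive in 3 of 3 pairs. Differences of 2 single tested probes separate the groups without overlap for 19.2% of all probe pairs after normalization and for 21.1% without it. The share for means of 3 probes against 3 was not computed and can differ. The contrast was chosen after the values had been seen, so no test is given.

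**Figure D4:**
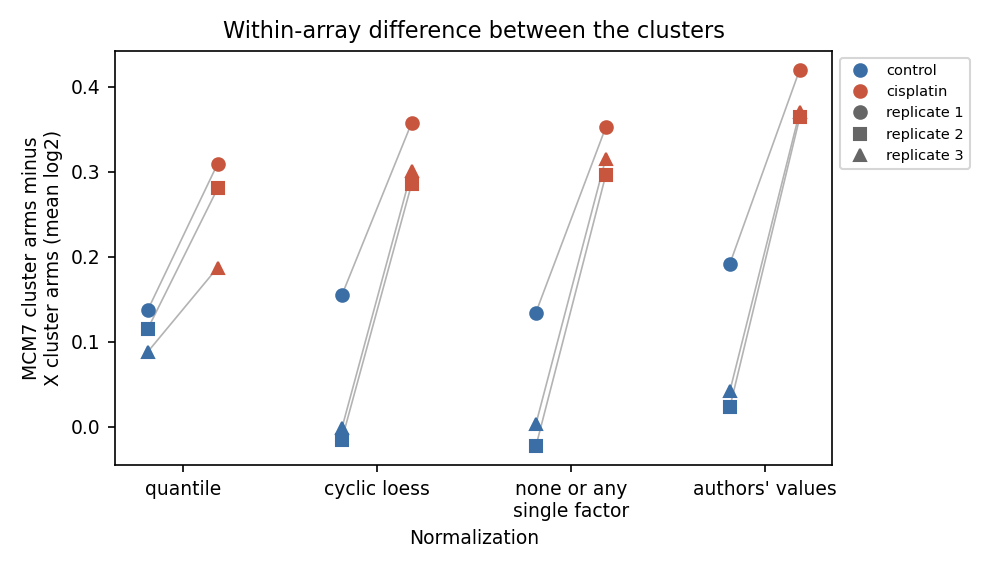
Mean log2 of miR-106b-5p, miR-93-5p and miR-25-3p minus that of miR-106a-5p, miR-18b-5p and miR-20b-5p within each array (control blue, cisplatin red, marker shape for the replicate number, lines joining same-numbered arrays), under 4 treatments of the data. Each cisplatin array lies above each control array, from 0.19 to 0.31 against 0.088 to 0.14 with quantile normalization and from 0.30 to 0.35 against -0.023 to 0.13 without normalization. The MCM7 arm miR-106b-3p is not part of the difference.

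Position by position the same comparison can be made between single members. These pairs were added after the values had been seen, so their p-values are a description only and test nothing. miR-93-5p minus miR-20b-5p, which share their seed and differ by C10G, A11U and A13C, changed by 0.13 after quantile normalization, from -0.44 ± 0.053 in control to -0.31 ± 0.017 in cisplatin arrays (SD, n = 3 each, exact two-sided permutation p = 0.1, the smallest that 3 against 3 arrays allow, and 0.3 adjusted over 3 added pairs). It changed by 0.25 without normalization. miR-106b-5p minus miR-106a-5p, which differ by A1U, U10G and G20A, changed by 0.043 after normalization with overlapping groups (exact p = 0.6) and by 0.25 without it, where the groups did not overlap (exact p = 0.1). Of all pairs of tested probes, 19.2% had groups without overlap after normalization and 21.1% without it.

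Against their MIR17HG counterparts the members gave these values. miR-106b-5p minus miR-17-5p changed by 0.11 (exact two-sided permutation p = 0.5) and was positive in 3 of 3 same-numbered pairs, at 0.10, 0.12 and 0.097. Without normalization it changed by 0.29, with overlapping groups (exact p = 0.2). miR-25-3p minus miR-92a-3p changed by 0.15 (exact p = 0.3), and by 0.28 without normalization, where the groups did not overlap (exact p = 0.1). Without normalization the groups did not overlap for 21.1% of all pairs of tested probes. After normalization the change of miR-25-3p minus miR-92a-3p was 0.079 without control replicate 1. miR-93-5p minus miR-20a-5p changed by 0.026 (exact p = 1), and by 0.19 without normalization (exact p = 0.5). Among the near copies, miR-106a-5p minus miR-17-5p changed by 0.062 (exact p = 0.8), miR-18b-5p minus miR-18a-5p by 0.0037 (exact p = 1) and miR-20b-5p minus miR-20a-5p by -0.10 (exact p = 0.6). The groups overlapped after normalization in all 6 of these pairs of tested probes. Adjusted over the 7 planned pairs, which include miR-363-3p minus miR-92a-3p, every exact p was 1.

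The 25 related arms were the other arms of both clusters, the MIR17HG host cluster and miRNAs outside the clusters with a shared seed. Of these 11 were tested, and 0 passed in the limma fit in either direction (4 had an unadjusted p under 0.05). All 11 were negative after quantile normalization, against 53.7% of all tested probes, with a median log2 difference of -0.21. Of the 11, miR-18a-3p, miR-19b-1-5p and miR-32-5p were tested only through the control arrays, a rule that favours a lower cisplatin value. Among probes above the limit on all 6 arrays, 8 of 8 related arms were negative, against 50.6% of all such probes. With median scaling, the 75th percentile and no normalization 9 of the 11 tested related arms were negative, with medians of -0.070, -0.063 and -0.088. Of all tested probes 31.5%, 29.6% and 34.3% were negative in these fits. With the authors' values 8 of the 10 fitted related arms were negative, with a median of -0.12, against 30.5% of all probes fitted. miR-20a-5p (0.051 with median scaling) and miR-92b-3p (0.12) were the positive ones in all 4. miR-19b-3p, made from the X-linked and the host locus, read 2211, 3082 and 2969 in control and 1895, 3080 and 2544 in cisplatin arrays. It held 1 rank on the control arrays, and its difference was -0.40 (SE 0.054, limma adjusted p = 0.0706, or 0.0391 without cisplatin replicate 2). Without that array 3 of all 324 tested probes passed. miR-92a-3p, also made from both loci, read 576, 715 and 731 in control and 534, 674 and 724 in cisplatin arrays (-0.21, SE 0.077, limma adjusted p = 0.276).

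In the host cluster the tested arms were miR-18a-5p (-0.33), miR-19a-3p (-0.32), miR-17-3p (-0.28), miR-18a-3p (-0.26), miR-19b-1-5p (-0.21), miR-20a-5p (-0.17) and miR-17-5p (-0.16), with limma adjusted p from 0.129 to 0.778. Outside the clusters, miR-92b-3p, which shares the seed of miR-25-3p, lay at -0.040 (SE 0.077). miR-32-5p, with that seed too, was above the limit on 3 of 3 control and 0 of 3 cisplatin arrays, so its cisplatin level is a bound only. Its normalized log2 means were 6.91 and 6.73 with overlapping groups (limma adjusted p = 0.619), and no fold is given. Sorting the same members and related arms by seed, 6 of 6 tested AAAGUGC, 2 of 2 AAGGUGC and 4 of 4 AUUGCAC miRNAs were negative after quantile normalization. This repeats the counts above. Of all tested probes 53.7% were negative, and miR-32-5p was tested only through the control arrays. With median scaling miR-106b-5p, miR-93-5p, miR-25-3p, miR-106a-5p, miR-20a-5p and miR-92b-3p among these seed groups were positive. The 14 untested related arms include the opposite arms miR-93-3p, miR-25-5p, miR-106a-3p, miR-18b-3p, miR-20b-3p and miR-363-5p, which read between 173 and 258 on all arrays.

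**Figure D5:**
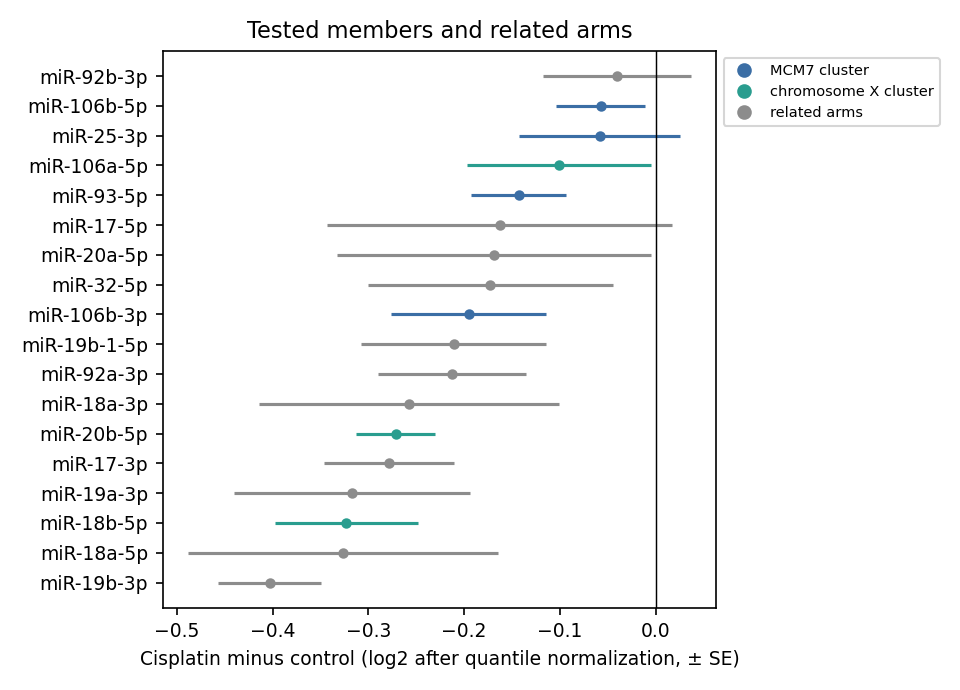
Cisplatin minus control difference (log2 after quantile normalization, ± SE, 3 arrays per group) of the 7 tested members and the 11 tested related arms, in order of size. All 18 are below 0, from -0.40 for miR-19b-3p to -0.040 for miR-92b-3p. Of them miR-106b-3p, miR-18a-3p, miR-19b-1-5p and miR-32-5p were tested only through the control arrays, which favours a lower cisplatin value. miR-106b-5p, miR-25-3p and miR-106a-5p lie at the upper end of the members and miR-18b-5p and miR-20b-5p at the lower end.

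For each tested member the tested probe outside the 8 with the most alike pattern of normalized log2 values was picked by Pearson's r over the 6 arrays, from 317 candidates. These r values are descriptive, include the group difference and share the arrays. The most alike probe was miR-19b-3p for miR-20b-5p (r = 0.974), miR-378a-3p for miR-93-5p (0.98), miR-625-3p for miR-18b-5p (0.981) and miR-3154 for miR-106b-5p (0.958). It was miR-1973 for miR-106a-5p (0.958), miR-4521 for miR-25-3p (0.944) and miR-30a-3p for miR-106b-3p (0.901). Among the members themselves, r was highest between miR-93-5p and miR-20b-5p (0.912), from different clusters, and between miR-18b-5p and miR-20b-5p (0.906), neighbours on chromosome X, while miR-25-3p had r of 0.132 with miR-106b-5p and -0.061 with miR-93-5p from its own cluster.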

How the data were processed

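Per the labels' protocols, HuH7 total RNA carried the dye Hy5 (added with a commercial kit for miRNA) and each array had 1 colour. In the deposited scanner files each spot has linear intensity values: pixel medians and means for foreground and local background, per the file headers. All spots had flag 0. The authors' processed table, also deposited, is linear intensity too (median 31 on each array). Comparison with the scanner files showed it to be foreground less the trimmed mean of blanks (5% from each end), divided by 1 factor per array, so scale, centring and direction are known. It was used as an alternative.

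Pixel medians were corrected with normexp (offset 50), fitted on all spots, log2-transformed and then quantile-normalized over the 2019 human probes with limma 3.58.1 (R 4.3.3). lmFit and eBayes, with 4 residual degrees of freedom and a prior of 1.52, gave the group differences of 324 tested probes, adjusted by Benjamini-Hochberg at 0.05. For within-array differences the exact permutation test over arrays was two-sided. The code of the fit was run on simulated data with independent noise, without slide place or pairs. The differences set there were larger than those of the members, so that run does not bear on these limits. Members were found by exact name, and 15 probes carry several names. Named in the text were all 8 members, the tested related arms and, per tested member, the most correlated other probe. The members, lists and tests were chosen with earlier results of these data known. Figures were drawn with matplotlib 3.10.9.

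Deviations from the group mean correlated between same-numbered samples at 0.44, 0.235 and 0.204 (numbers 1, 2 and 3; 324 probes). Since each is over 0.1, same-numbered samples were treated as pairs for the within-pair values and in the replicate block. The main limma fit and the exact permutation tests did not use the pairs, so their p-values and SEs are unpaired. The pairing rests on the labels' numbers and this check, not on a stated design. Control 3 and cisplatin 2 correlated too (0.229). Alternatives covered background correction, normalization, detection, moderation, the replicate block, slide place, pixel means, the authors' values and leaving out each array.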

Additional observations from a re-analysis of the deposited data

How the results depend on the processing

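The number of members called was 0, but 1 without background correction (miR-20b-5p, limma adjusted p = 0.0223), 1 at an adjusted p under 0.1 (miR-20b-5p) and 3 with slide position as a random block (miR-93-5p, miR-18b-5p and miR-20b-5p), where the estimated correlation was negative (-0.62) and shrinks the standard errors, so that this count is not relied on. The related arms gave 1, 1 and 3 under these settings, with miR-19b-3p in each, and 0 to 1 when 1 array was left out, with miR-19b-3p passing without cisplatin replicate 2 (limma adjusted p = 0.0391). Of all 324 tested probes, 3 passed without background correction, 47 with the random block and 3 without cisplatin replicate 2. At an adjusted p under 0.1, miR-4484, miR-425-5p and miR-1304-3p passed outside the members and related arms. With the replicate block 0 members and 0 related arms passed, so the block changed no call among them. For the pairs 0 passed too, but the smallest p the design allows is 0.25 with the block and 0.1 without it. The median over the tested members of -0.14 became 0.0042 with median scaling, 0.011 with the 75th percentile, -0.013 without normalization, -0.044 with the authors' values and -0.073 with pixel means. The shift of all tested probes was 0.088, 0.095, 0.071, 0.14 and -0.0038 in these fits and -0.11 with spike control scaling; less it, the first 4 medians were -0.084, -0.084, -0.084 and -0.19.

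Members turned sign in these fits. miR-106b-5p, miR-93-5p and miR-25-3p stood at 0.25, 0.24 and 0.23 with median scaling, at 0.26, 0.24 and 0.24 with the 75th percentile, at 0.23, 0.22 and 0.21 without normalization, at 0.050, 0.037 and 0.029 with spike control scaling and at 0.21, 0.20 and 0.19 with the authors' values. miR-106a-5p stood at 0.0042 with median scaling and 0.011 with the 75th percentile, a turn within the shift. When 1 array was left out, miR-25-3p ranged from -0.17 to 0.021, above 0 without control replicate 3, miR-106a-5p from -0.21 to -0.034 and miR-106b-5p from -0.074 to -0.028. miR-18b-5p and miR-20b-5p stayed negative under all 22 alternatives (-0.38 to -0.11 and -0.30 to -0.010), as did miR-106b-3p under the 21 in which it was tested (-0.83 with the authors' values to -0.073 with pixel means). By construction the fixed blocks, the moderation and the detection filter leave these values as they are.

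Within arrays, miR-18b-5p minus miR-18a-5p, at 0.0037, became -0.0067 with plain subtraction, -0.051 with median, 75th percentile or spike control scaling or none, -0.019 with cyclic loess and -0.058 with the authors' values. miR-20b-5p minus miR-20a-5p became 0.11 for the arrays at places 3 and 4. When 1 array was left out the pairs ranged from -0.31 to 0.039 for miR-20b-5p minus miR-20a-5p, -0.12 to 0.11 for miR-18b-5p minus miR-18a-5p, -0.031 to 0.21 for miR-106a-5p minus miR-17-5p, -0.065 to 0.26 for miR-106b-5p minus miR-17-5p, -0.16 to 0.16 for miR-93-5p minus miR-20a-5p and -0.034 to 0.14 for miR-106b-5p minus miR-106a-5p, and the lowest value of each came without cisplatin replicate 1. The difference between the clusters (without miR-106b-3p), its pairs with chromosome X members and the 2 arms of miR-106b were added after seeing the data. The first changed by 0.096 to 0.30 over all settings in which it was computed, without overlap between the groups in any. The cause of these changes was not tested. The dim members miR-106b-3p and miR-363-3p are limited by their signal over background.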
